A study of Mus musculus with 2 samples.

Results

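Mir21a and the Mir29 family are microRNAs often linked to tissue fibrosis, and their levels were read here in the livers of 2 newborn mice. The genes were taken by symbol: Mir21a, Mir29a, Mir29b-1, Mir29b-2 and Mir29c, 5 of the 1973 microRNA genes in the count tables, all 5 with an entry. The livers came from pups of strain B6NCrl at postnatal day 0, both from the same pregnant female and of sex not recorded, with no treatment, injury or genotype to compare. Pup 2 and pup 1 gave 1 microRNA-seq library each, from total RNA with inserts under 30 bases, so the data form 1 group of n = 2 animals. The livers are whole tissue, in which a lower share of a cell type and less of a microRNA per cell cannot be told apart.

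MicroRNAs are cut from a hairpin precursor into a pair of short mature strands, named 5p and 3p, and repress messenger RNAs that match the seed, bases 2 to 8 of the mature strand. miR-21 is known as a pro-fibrotic microRNA: transforming growth factor beta promotes its maturation, and it represses Smad7, an inhibitor of that signalling. The miR-29 family is known as anti-fibrotic, because its seed matches messenger RNAs of collagens and other matrix proteins, and in activated stellate cells, the collagen-producing cells of the liver, it is lowered by transforming growth factor beta.

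The mature strands are shown because they decide which reads can be assigned to a locus. They are from RefSeq on GRCm38.p6, written 5′ to 3′, with the seed in capitals. The guide strands, known from the literature as the abundant ones, are miR-21a-5p and the 3p strands of the Mir29 loci:
miR-21a-5p: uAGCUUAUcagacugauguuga
miR-29a-3p: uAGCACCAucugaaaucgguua
miR-29b-3p: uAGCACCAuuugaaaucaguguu
miR-29c-3p: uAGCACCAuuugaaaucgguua

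All 4 Mir29 loci share the seed AGCACCA on the 3p strand, and in the reference table no other locus has it. The seed of miR-21a-5p, AGCUUAU, occurs at 1 other locus, Mir21c. Counted from 1 at the 5′ end, miR-29c-3p differs from miR-29a-3p by the single substitution C10U, written with the base of miR-29a-3p before the position. From miR-29a-3p to miR-29b-3p there are 4 differences over the 22 bases compared, C10U, G18A, U21G and A22U. miR-29b-3p and miR-29c-3p are identical over their first 17 bases.

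The opposite strands of the hairpins differ between the loci, also between the Mir29b pair:
miR-21a-3p: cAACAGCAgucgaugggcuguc
miR-29a-5p: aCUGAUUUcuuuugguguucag
miR-29b-1-5p: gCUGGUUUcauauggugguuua
miR-29b-2-5p: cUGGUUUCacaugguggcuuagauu
miR-29c-5p: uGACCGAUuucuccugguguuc

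miR-29b-3p is the same sequence at both Mir29b loci. A read from it maps to both places, and the deposited tables place reads that map to several loci on no gene. The Mir29b-1 and Mir29b-2 hairpins share an unbroken stretch of 25 bases that holds the whole of miR-29b-3p. Their 5p strands are not shared with another microRNA hairpin over any 18-base window. The counts of Mir29b-1 and Mir29b-2 therefore do not measure miR-29b-3p, except in reads that run past the shared stretch, and are uncertain as levels of these genes.

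Mir21a (ENSMUSG00000065455.1, chr11:86584067-86584158, minus strand, mm10) lies in an untranslated exon of Vmp1, on the same strand. Mir29a (ENSMUSG00000065610.1, chr6:31062660-31062747, minus strand) overlaps no other annotated gene. Mir29b-1 (ENSMUSG00000065604.1, chr6:31063023-31063093, minus strand) lies 275 bases from Mir29a and overlaps the non-coding gene Gm27019 by 2 bases. Mir29b-2 (ENSMUSG00000065412.2, chr1:195037040-195037120, plus strand) and Mir29c (ENSMUSG00000065548.1, chr1:195037547-195037634, plus strand) lie 426 bases apart. Both sit in an exon of the non-coding gene A330023F24Rik, and opposite to an untranslated exon of Cd46. No other microRNA gene in the tables lies within 10000 bases of a member. The Mir29 loci thus form 2 clusters, each with a Mir29b copy.

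The libraries held 8277738 reads in pup 2 and 6028986 reads in pup 1, and 4538427 and 3422622 of these fell in microRNA genes on the gene's own strand. Levels are CPM, a count divided by this total and multiplied by 1000000. They are per hairpin and not per base, and the hairpins measure 71 to 92 bases. A count of 0 allows up to 0.661 CPM in pup 2 and 0.877 CPM in pup 1. Reads at several loci numbered 2044197 in pup 2 and 1520712 in pup 1. All intervals are exact 95% intervals for counting error of the reads alone. PCR copies of a molecule are counted as separate reads, which the intervals do not allow for. Nothing in the labels speaks of repeat libraries of a pup, so the SD holds both animal and technical spread. Mir122, the defining hepatocyte microRNA, was the most abundant gene, at 354939 CPM in pup 2 and 342309 CPM in pup 1.

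Mir21a was the most abundant member by far. It had 135884 counts in pup 2 and 122300 in pup 1, or 29941 CPM (29784 to 30098) and 35733 CPM (35536 to 35930). Its mean of 32837 ± 4096 CPM (SD, n = 2) put it at rank 5 of all genes in each pup, with 2.99% of the counts in pup 2 and 3.57% in pup 1. The genes next to it in level were Mir26b above, at 36936 CPM in pup 2 and 41157 CPM in pup 1, and Mir22 below, at 28133 CPM in pup 2 and 26130 CPM in pup 1. On the scale of mean log2 CPM these neighbours lay 0.25 above and 0.27 below Mir21a, likeness of level over 2 libraries only.

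Mir29a, the locus of the anti-fibrotic family with the most counts, had 2890 counts in pup 2 and 2486 in pup 1. These are 637 CPM (614 to 660) in pup 2 and 726 CPM (698 to 755) in pup 1, a mean of 682 ± 63.3 CPM (SD, n = 2). It ranked 93 in pup 2 and 87 in pup 1. Mir181c, at 669 CPM in pup 2 and 702 CPM in pup 1, and Mir329, at 713 CPM and 637 CPM, were its neighbours in level. Neither was separated from Mir29a by more than the spread between the pups.

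Mir29c, whose guide strand is 1 base from that of Mir29a, stood well below it. It had 374 counts in pup 2 and 342 in pup 1, or 82.4 CPM (74.3 to 91.2) and 99.9 CPM (89.6 to 111). The mean was 91.2 ± 12.4 CPM (SD, n = 2). Mir205, at 93.2 CPM in pup 2 and 90.3 CPM in pup 1, and Mir128-1, at 92.1 and 84.7 CPM, stood next to it. The median of the 390 genes tested, those whose counts in the pups summed to 10 or more, was 58.7 CPM, so Mir29c was close to the middle of the detected genes, with 52.8% of them below it.

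The Mir29b loci were barely counted. Mir29b-1 had 26 counts in pup 2 and 18 in pup 1, or 5.73 CPM (3.74 to 8.39) and 5.26 CPM (3.12 to 8.31). Mir29b-2 had 10 counts in pup 2 and 3 in pup 1, or 2.20 CPM (1.06 to 4.05) and 0.877 CPM (0.181 to 2.56), the last being no more than what a count of 0 allows. How many of the reads at several loci came from miR-29b-3p is not known. Next in level to Mir29b-1 were Mir7688 at 29 and 16 counts and Mir1188 at 25 and 17 counts in pup 2 and pup 1. Next to Mir29b-2 were Mir5116 at 5 and 7 counts and Mir7063 at 10 and 3 counts.

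**Figure D1:**
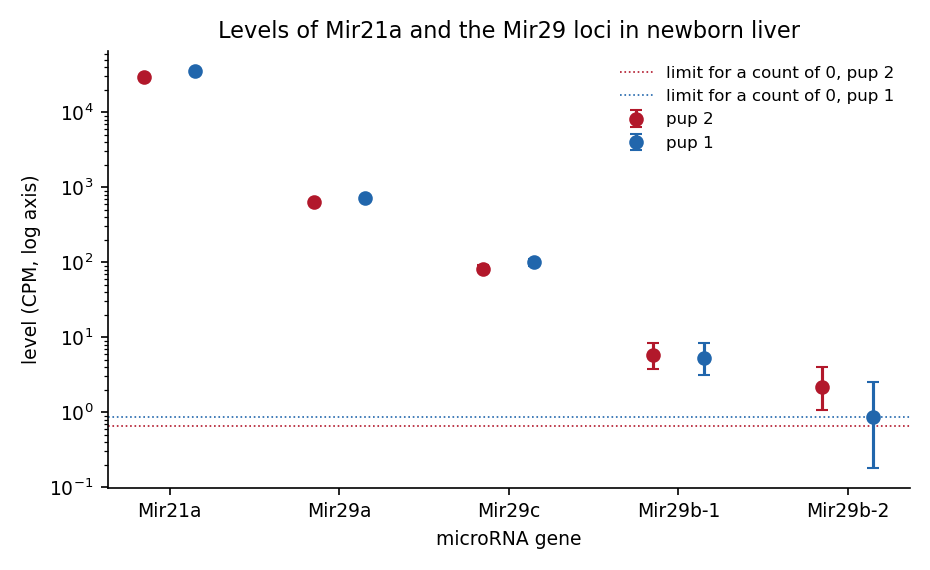
Level in CPM, on a log axis, of each member in pup 2 (red, left) and pup 1 (blue, right), with bars for the exact 95% counting interval and dotted lines for the level that a count of 0 allows in each library. Mir21a sits at 29941 and 35733 CPM, Mir29a between 637 and 726 CPM, Mir29c between 82.4 and 99.9 CPM, and the Mir29b loci at the bottom, with Mir29b-2 at the limit in pup 1.

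The order was the same in both pups: Mir21a, Mir29a, Mir29c, Mir29b-1, Mir29b-2. At each of the 4 steps all values of the higher gene exceeded those of the lower, and the gap between means exceeded the sum of the SDs. For the lowest step the gap was 3.95 CPM against summed SDs of 1.27 CPM. The counting intervals of Mir29b-1 and Mir29b-2 overlapped in pup 2 and did not in pup 1. The Mir29b-1 count was 2.60 times that of Mir29b-2 in pup 2 (1.21 to 6.04) and 6 times in pup 1 (1.75 to 31.8). With 2 animals the smallest two-sided p of an exact sign-flip test is 0.5, so no p is given for the order.

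Within the family, Mir29a made up 87.6% of the Mir29 counts in pup 2 and 87.3% in pup 1. All shares and cluster values here are of uniquely mapped reads. These leave out miR-29b-3p, except in reads that run past the shared stretch, so the share of miR-29b in the family is not known. Mir29c made up 11.3% in pup 2 and 12.0% in pup 1, Mir29b-1 0.788% and 0.632%, and Mir29b-2 0.303% and 0.105%. The Mir29a count was 7.73 times that of Mir29c in pup 2 (6.94 to 8.63) and 7.27 times in pup 1 (6.49 to 8.16), with overlapping intervals. The cluster on chromosome 6 thus gave 643 CPM in pup 2 and 732 CPM in pup 1, against 84.6 CPM and 101 CPM for the cluster on chromosome 1. In these uniquely mapped reads, the locus with a guide strand of its own was far above the Mir29b copy within each cluster. Mir29a had 111 times the counts of Mir29b-1 in pup 2 and 138 times in pup 1, and Mir29c had 37.4 times the counts of Mir29b-2 in pup 2 and 114 times in pup 1.

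Mir21a was then set against each Mir29 locus within each library, a ratio that does not depend on the library total. The pro-fibrotic microRNA was the higher in every case, and by a like factor in both pups for the well-counted loci. It had 47.0 times the counts of Mir29a in pup 2 (45.3 to 48.8) and 49.2 times in pup 1 (47.3 to 51.2), a mean of 48.1 ± 1.54 (SD, n = 2). Over Mir29c the ratio was 363 in pup 2 (328 to 403) and 358 in pup 1 (322 to 399), a mean of 360 ± 4.05. Both pairs of intervals overlap, which does not by itself show that the ratios are equal. A difference between the pups in these ratios was not tested.

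Against the summed Mir29 counts, 3300 in pup 2 and 2849 in pup 1, Mir21a was 41.2-fold higher in pup 2 (39.8 to 42.6) and 42.9-fold in pup 1 (41.4 to 44.6). The mean was 42.1 ± 1.24 (SD, n = 2). Reads that map to both Mir29b loci are not in that sum, and adding them would lower this ratio. Matches of Mir21a outside microRNA hairpins were not looked for, so no bound on the ratio is given. Over Mir29b-1 the ratio was 5226 in pup 2 (3567 to 8001) and 6794 in pup 1 (4299 to 11465). Over Mir29b-2 it was 13588 in pup 2 (7389 to 28337) and 40767 in pup 1 (13949 to 197684), the last from only 3 counts. Ratios over the Mir29b loci describe the uniquely mapped reads and not the amount of miR-29b-3p. Divided by the length of the hairpins, the mean ratio was 46.0 ± 1.47 over Mir29a and 345 ± 3.87 over Mir29c.

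**Figure D2:**
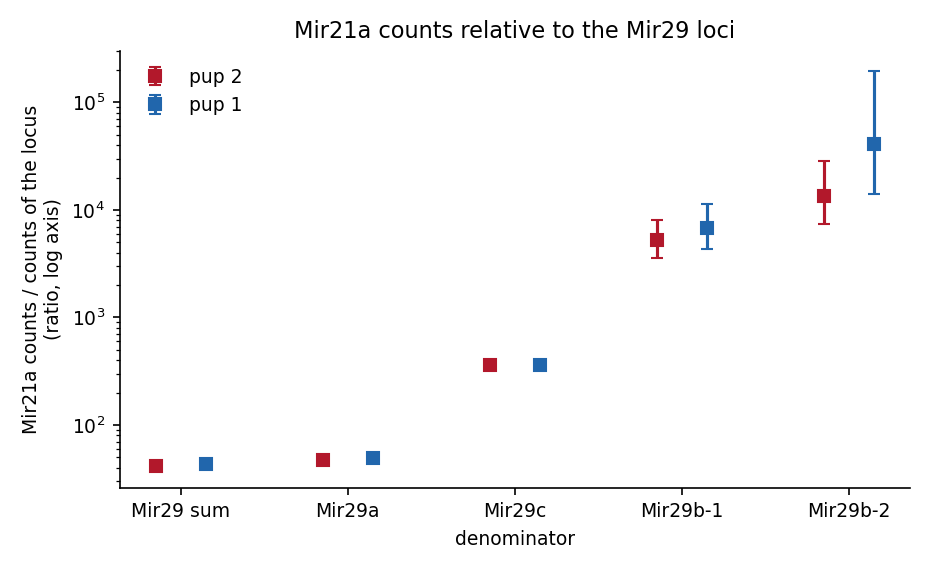
Ratio of Mir21a counts to the counts of the summed Mir29 loci and of each Mir29 locus, on a log axis, in pup 2 (red, left) and pup 1 (blue, right), with exact 95% counting intervals. The ratios to Mir29a (47.0 and 49.2) and Mir29c (363 and 358) nearly coincide between the pups, while those to Mir29b-2 (13588 and 40767) have wide intervals.

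All counted reads of the members were on the gene strand. Counts without regard to strand equalled the gene-strand counts for each of the 5 members in both libraries, and opposite-strand counts were 0. The opposite-strand exon of Cd46 at the chromosome 1 cluster therefore added nothing. The near relatives of Mir21a were close to absent: Mir21b (chromosome 3) had 1 count in pup 2 and 0 in pup 1, and Mir21c (chromosome 8) had 0 in both.

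Shared sequence was measured along each hairpin by windows of read length. None of the windows of Mir21a or Mir29a, at any of the lengths tried from 18 to 25 bases, occurred in another microRNA hairpin. At 22 bases, 5 of 50 windows of Mir29b-1, 4 of 60 of Mir29b-2 and 1 of 67 of Mir29c did. The Mir29c window is shared with Mir29b-1 and starts upstream of the mature strand, and no 18-base window of miR-29c-3p itself was shared. Every 18-base window of miR-29b-3p was. Of the 1894 microRNA genes with a hairpin sequence, 46.3% had at least 1 shared 22-base window, beside 3 of the 5 members.

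**Figure D3:**
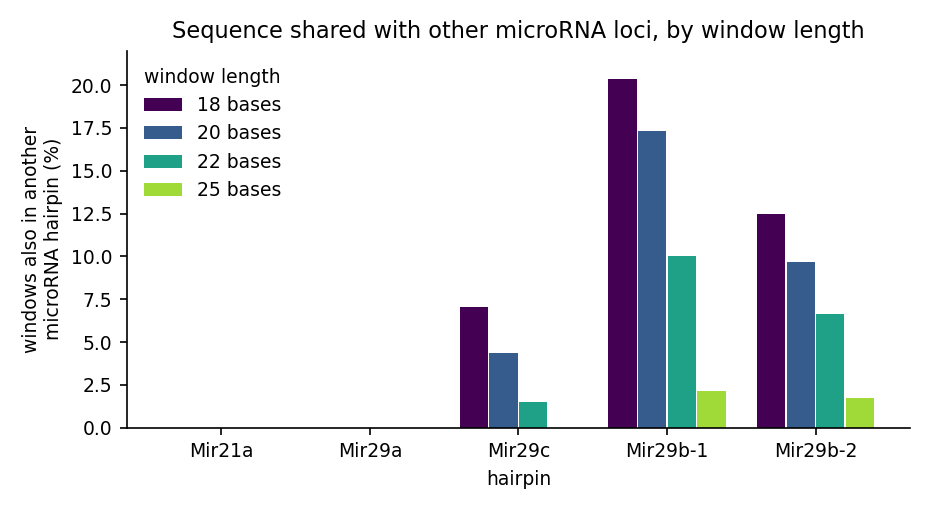
Share of windows of each hairpin, in %, that also occur in the hairpin of another microRNA locus, for windows of 18, 20, 22 and 25 bases. Mir21a and Mir29a have none, Mir29c has 1.49% at 22 bases, and Mir29b-1 (10%) and Mir29b-2 (6.67%) have the most, over the stretch that holds miR-29b-3p.

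Levels of genes with and without such a copy give a setting for the Mir29b values. Of the genes tested that have a mature strand in the reference table, 43 had a mature strand identical to that of another locus. Their median level was 38.2 CPM, and 4 of them (9.30%) reached 1000 CPM. The 306 genes without one had a median of 97.7 CPM, and 70 (22.9%) reached 1000 CPM. The direction of the medians depended on the count minimum. Without it, the median was 0.953 CPM over 87 genes with an identical copy and 0.366 CPM over 829 without. Of these, 4.60% and 8.44% reached 1000 CPM. Both Mir29b loci belong to the set with an identical copy and lie far below its median of 38.2 CPM among the genes tested. Copies share sequence and family, so these sets are a description with no test.

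Between the pups, the well-counted members were slightly lower in pup 2. Mir21a, Mir29a and Mir29c passed the exact binomial test with Benjamini-Hochberg adjustment over 390 genes, and the Mir29b loci did not. That is 3 of 5 members called, all lower in pup 2, beside 30.3% of all genes tested called in either direction and 14.4% called lower. The test asks only whether the libraries differ by more than counting error, so abundant genes are called for small shifts: of the 72 genes whose counts summed to 10000 or more 79.2% were called, and among those with at least 100 counts in both 48.9%.

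The log2 ratio of pup 2 over pup 1 was -0.26 for Mir21a (exact 95% interval -0.27 to -0.24), a level 0.838 times that of pup 1, with an adjusted p too small for the program to give. Of the 72 most counted genes, 10 were further apart between the pups than Mir21a. For Mir29a the log2 ratio was -0.19 (-0.27 to -0.11), with an adjusted p = 9.91e-06 in the exact binomial test. For Mir29c it was -0.28 (-0.49 to -0.06), with an adjusted p = 0.0351 in the exact binomial test, a call that was lost when Mir122 was left out of the library totals (adjusted p = 0.0674). The intervals of the 3 overlapped.

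Mir29b-1 had a log2 ratio of 0.12 (-0.80 to 1.08, exact binomial adjusted p = 0.958) and Mir29b-2 of 1.33 (-0.63 to 3.83, exact binomial adjusted p = 0.341). These intervals are too wide to show a difference of the size seen in Mir21a. The median log2 ratio over the 5 members was -0.19, beside 0.00 over all genes tested.

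edgeR's negative binomial exact test, which treats the spread between the pups as noise, called no member, and 0.513% of all genes. Among the members, the lowest unadjusted p of that exact test was 0.292, for Mir29b-2. The biological coefficient of variation that the test used, 0.130, came from the same 2 libraries. The SD of the members as a share of the mean was 12.5% for Mir21a, 9.29% for Mir29a and 13.6% for Mir29c.

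**Figure D4:**
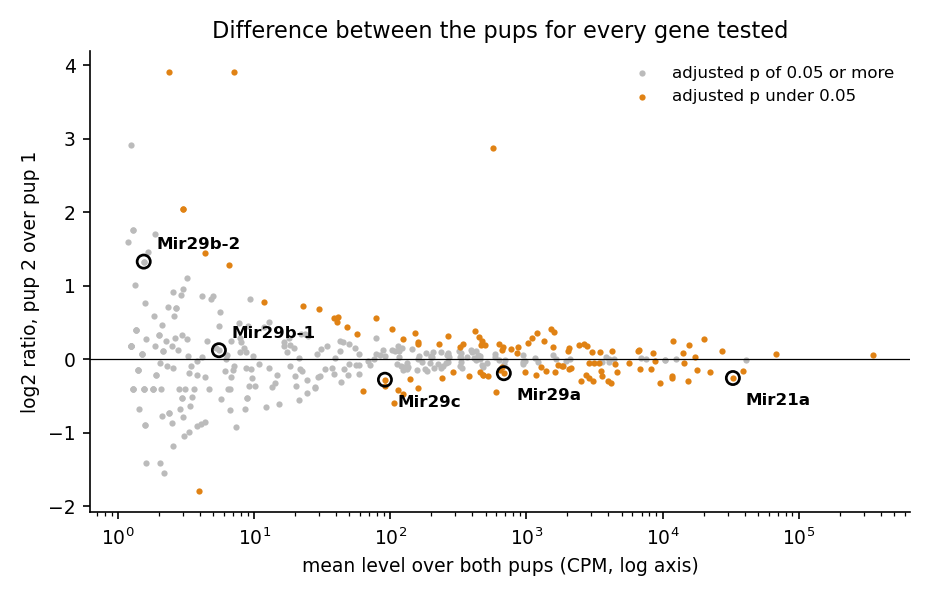
Log2 ratio of pup 2 over pup 1 against the mean level in CPM (log axis) for every gene tested that has a count in both pups, with genes past the exact binomial test in orange and the members circled. Mir21a (-0.26), Mir29a (-0.19) and Mir29c (-0.28) lie just below 0, and the Mir29b loci lie above it among the scattered weak genes.

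Marker microRNAs of other cell types also differed in level between the pups. The exact binomial test, used for the calls here, called 30.3% of all genes tested. It called 48.9% of genes with at least 100 counts in both pups and 79.2% of those with 10000 or more summed. The negative binomial test called none of the markers but Mir206. Leukocyte markers summed to 8010 CPM in pup 2 and 8723 CPM in pup 1. That is over 3 of 5 listed symbols, as Mir142 had no entry under either symbol listed for it. Their leading gene Mir223 was called lower, at 7846 CPM in pup 2 and 8567 CPM in pup 1, and Mir150 was called higher, at 55.3 CPM in pup 2 and 40.9 CPM in pup 1, by the exact binomial test. Erythroid markers (3 of 3) summed to 5150 CPM in pup 2 and 5309 CPM in pup 1, a sum of opposite differences. Mir451a was called lower, at 3310 CPM in pup 2 and 3877 CPM in pup 1, and Mir144 higher, at 1786 CPM in pup 2 and 1374 CPM in pup 1. Mesenchymal markers of stellate and smooth muscle cells (5 of 5), led by Mir143, summed to 15784 CPM in pup 2 and 14991 CPM in pup 1, and of the 4 tested only Mir143 was called, as higher in pup 2. Hepatocyte markers (5 of 5) summed to 369463 CPM in pup 2 and 357809 CPM in pup 1, with Mir122 called higher in pup 2 and Mir192, Mir148a and Mir194-2 called lower, and a median log2 ratio of -0.13. Endothelial Mir126a stood at 69174 CPM in pup 2 and 65978 CPM in pup 1, and was called higher in pup 2.

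Muscle markers differed most, with 1067 CPM in pup 2 and 181 CPM in pup 1, of which Mir206 gave 1004 CPM in pup 2 and 136 CPM in pup 1, while Mir1a-1, Mir133a-1 and Mir133a-2 were at 0. Pancreatic markers, led by Mir375, summed to 2121 CPM in pup 2 and 1953 CPM in pup 1, and epithelial and bile duct markers, led by Mir429, to 6653 and 6841 CPM. Neural markers summed to 19.4 CPM in pup 2 and 17.2 CPM in pup 1, from Mir137 and Mir9-3, with 4 of 6 at 0. The muscle and neural genes at 0 belong to microRNAs listed at several loci. Reads that map to several loci are on no gene, so these values of 0 do not show absence. The part of the marker shifts in the lower Mir21a and Mir29 levels of pup 2 was not tested.

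Other microRNAs linked to fibrosis give the members their place. Of 13 genes described as promoting fibrosis or raised with it, none reached Mir21a and 3 exceeded Mir29a. Of all genes tested, 98.7% lay below Mir21a and 77.2% below Mir29a. Mir192, which transforming growth factor beta raises in cultured mouse kidney mesangial cells, had 8662 CPM in pup 2 and 8829 CPM in pup 1. Mir27b, linked to stellate cell activation in rat, had 1662 CPM in pup 2 and 1477 CPM in pup 1, and shares a 20-base stretch with Mir27a. Mir214, co-transcribed with Mir199a-2, had 697 CPM in pup 2 and 702 CPM in pup 1, which did not separate it from Mir29a.

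The Mir199a and Mir199b loci, which share their mature strands, held 0.915 to 22.4 CPM on average. The median mean level of the 13 genes, of which 12 were tested, was 124 CPM, beside 58.7 CPM over all genes tested. The exact binomial test called 1 of the 12 tested higher in pup 2 and 2 lower, beside 30.3% of all genes tested called in either direction, with a median log2 ratio of -0.10.

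Of 22 genes described as limiting fibrosis or lowered with it, 21 had an entry, 1 exceeded Mir21a and 7 exceeded Mir29a. Over all genes tested, 98.7% were below Mir21a and 77.2% below Mir29a. Mir122, whose loss in mice leads to fibrosis of the liver, was the gene above Mir21a, whose counts were 0.0844 times those of Mir122 in pup 2 and 0.104 times in pup 1. Mir335, described as limiting stellate cell migration in rat, came next, at 21002 CPM in pup 2 and 23736 CPM in pup 1. Mir101b, whose family is described as repressing a receptor of transforming growth factor beta, had 17079 CPM in pup 2 and 18953 CPM in pup 1, and shares a 20-base stretch with Mir101a. Mir30a, next in the list by level, had 13734 CPM in pup 2 and 16854 CPM in pup 1, which is 21.6 times the Mir29a count in pup 2 and 23.2 times in pup 1.

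Mir133a-1 and Mir133a-2 were at 0 in both libraries, which does not show absence, because reads that map to several loci are on no gene. The median mean level over the 21 genes, with the Mir133a pair at 0 included, was 259 CPM, beside 58.7 CPM over all genes tested. Of the 19 tested, the exact binomial test called 4 higher in pup 2 and 6 lower, beside 30.3% of all genes tested called in either direction, 14.4% called lower and 48.9% called where each pup had 100 counts or more. The median log2 ratio was -0.10, beside 0.00 over all genes tested. None of either list was called by the negative binomial test. Of the 31 listed genes with a mature strand in the reference table, 13 have a mature strand identical to that of another locus, and their median was 22.4 CPM, against 406 CPM for the other 18. Mir16-1, at a mean of 2883 CPM, was the highest of these 13. Mir122 and the Mir133a pair have no mature strand in the reference table under their symbols and are in neither set.

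**Figure D5:**
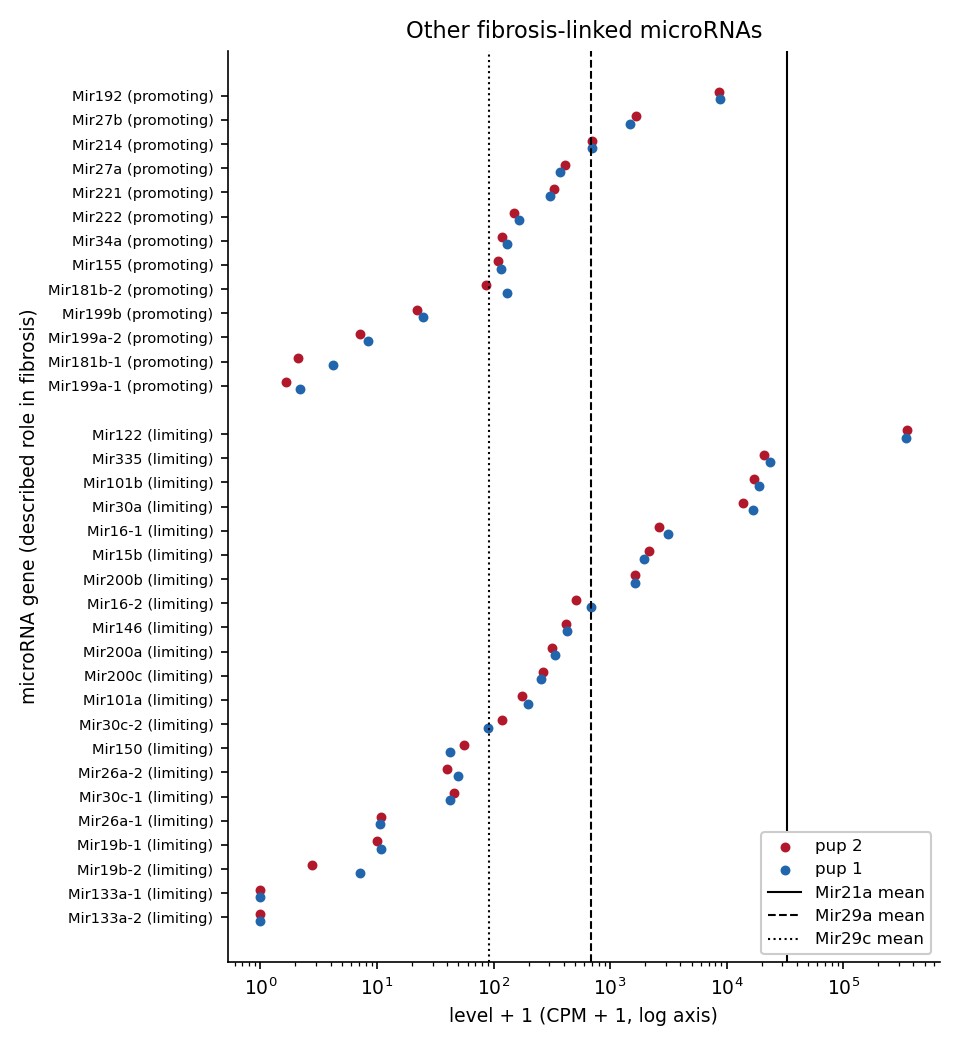
Level plus 1 in CPM (log axis) of other microRNAs described as promoting or limiting fibrosis, in pup 2 (red, upper dot) and pup 1 (blue, lower dot), with lines at the mean of Mir21a (solid), Mir29a (dashed) and Mir29c (dotted). Only Mir122 lies to the right of Mir21a, and 10 genes of both lists lie to the right of Mir29a. Among all genes tested, 98.7% were below Mir21a and 77.2% below Mir29a.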

How the data were processed

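The authors deposited raw read counts per microRNA gene, 1 table per library, on assembly mm10 with annotation release M4, per the deposited file descriptions. Aligner and counter were not given in the sources used here. Without a header in the tables, the 3 count columns were read as counts without strand, on the gene strand and on the opposite strand, because the total of the first equals the sum of the totals of the other two, of which the second column holds nearly all; this reading is from the values. Gene-strand counts were used. Uniquely mapped reads outside microRNA genes or on the strand opposite to one, 9.92% in pup 2 and 8.87% in pup 1, stayed out of totals. So did unmapped and multiply mapped reads. Identifiers were matched without version to GENCODE M21, the same assembly: 1894 of 1973 had a symbol, and the others held 0 counts. The identifiers of Mir29b-1 and Mir29b-2 carry a later version in M21, so their intervals in M4 may differ. Each count covers a whole hairpin, so its strands are not told apart. Capture and ligation differences between sequences were not corrected.

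CPM, means and SDs were computed over 2 pups. Shares and ratios have exact Clopper-Pearson intervals, and a count of 0 is taken to allow 3 counts. Genes whose counts in the pups summed to 10 or more were compared by a two-sided exact binomial test given the library totals, with Benjamini-Hochberg adjustment at 0.05. edgeR 4.0.16 gave TMM sizes and the negative binomial exact test with the common dispersion of an intercept-only design. DESeq2 1.42.0 gave size factors, and R was 4.3.3 and scipy 1.17.1. No quasi-likelihood test was possible, as there is 1 group. The pups differed by more than counting error (chi-square 19424 on 389 degrees of freedom), so the libraries are not copies of each other. Simulated counts with known changes were used to check the comparison.

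Members and lists were chosen with earlier results of these data known. Besides the members, the text names the genes next in level, the 3 highest genes of each fibrosis list and the highest gene of each marker list. Mir21b, Mir21c, the Mir199 loci, Mir30a, the Mir133a pair, Mir142, Mir144, Mir148a, Mir150, Mir194-2, Mir9-3, Mir16-1 and Mir1a-1 were named after their values were seen. The comparison of genes with identical mature copies was added then too, and so was the total of all mapped reads.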

Additional observations from a re-analysis of the deposited data

How the results depend on the processing

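Ratios of Mir21a to the Mir29 loci were unchanged with counts without strand, as they had to be, because no member had opposite-strand counts. With each pup alone the ratios stayed within 1 SD, where a single pup of 2 cannot lie further than that from their mean. All levels stayed within 1 SD with counts without strand and with TMM or DESeq2 sizes. They did so with each pup alone too, for the same reason as the ratios. Levels scale with the total chosen. Without Mir122 in the total they were 50373 CPM for Mir21a, 1046 for Mir29a, 140 for Mir29c and 8.44 for Mir29b-1. With uniquely mapped reads as the total Mir29a was at 618 and Mir29b-1 at 4.98, and with all mapped reads, an alternative chosen after seeing the data, Mir21a was at 21182, Mir29a at 440, Mir29c at 58.8 and Mir29b-1 at 3.54. The order of the members was the same under TMM and DESeq2 sizes. It could not change, because these scale all genes of a pup by the same factor and both pups had the same order. Members called between the pups fell to 0 in the negative binomial exact test, which called 2 of 390 genes against 118, because it counts the spread between the pups as noise. The Mir29c call was also lost with genes of at least 1 count tested (adjusted p = 0.0590). Shared windows depend on their length by construction: 20.4% at 18 bases and 2.13% at 25 for Mir29b-1, 12.5% and 1.75% for Mir29b-2, and 7.04% and 0% for Mir29c. Depth limits Mir29b-2 most, with a counting interval of 0.181 to 2.56 CPM in pup 1.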
